A study of Mus musculus with 11 samples.

Results

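The stefin A cluster of mouse chromosome 16 is a run of closely related genes for small intracellular inhibitors of cysteine proteases. The set described here held 9 of its genes, Csta1, Stfa2l1, Gm5483, 2010005H15Rik, Stfa1, BC117090, BC100530, Stfa2 and Stfa3, of 38406 genes in the deposited table. They were found by gene symbol for 8 genes and under the older name Csta for Csta1. The set was chosen by family and position with earlier results of these libraries known, among them the Stfa2l1 difference between genotypes. The genotype contrast of its members is therefore given as a description, with levels, log2 fold changes and standard errors (SE) but no p-value.

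The libraries came from mRNA of pulverized back skin of female C57BL/6 mice aged 8 to 10 weeks, 5 wild type (replicates 2 to 6) and 6 Trex2-/- knockout (replicates 7 to 12). Trex2 is a DNA exonuclease made mainly by keratinocytes, and the knockout is constitutive, so cells of every type carry it. All 11 mice received 125 mg of 5% imiquimod cream, a TLR7 agonist that induces psoriasis-like inflammation, on the shaved back daily for 4 days. Skin was taken 24 h after the last dose. Untreated skin was not analysed here, so no value below shows an effect of imiquimod.

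Stefins belong to the type 1 cystatins: they act in the cytosol, carry no signal peptide, and block papain-like cathepsins by inserting a wedge of loops into the active site cleft. Human skin has a single stefin A gene, CSTA, whose product is crosslinked into the cornified envelope. In the mouse the gene has multiplied, and several copies are known transcripts of neutrophils and their bone marrow precursors as well as of inflamed epidermis.

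In GRCm38 coordinates the cluster spans chr16:36119946-36455392, or 335 kb, and all 9 members are annotated as protein coding. Csta1 (chr16:36119946-36131241, minus strand) opens it. Stfa2l1 (36156811 to 36161953), Gm5483 (36184212 to 36188111), 2010005H15Rik (36221468 to 36257444) and Stfa1 (36276951 to 36285373) follow on the plus strand. BC117090 (36321665 to 36334332), BC100530 (36359382 to 36367748), Stfa2 (36403992 to 36408457) and Stfa3 (36450537 to 36455392) close it on the minus strand. A further protein-coding stefin gene outside the set, Gm5416 (36210403 to 36217788, plus strand), lies between Gm5483 and 2010005H15Rik. The principal coding sequences had 96 to 103 codons.

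Some members differ by few bases, and how reads of such copies were divided among them bears on their values. Over the 36 pairs of members, coding identity ran from 77.7% to 97.9% with a median of 82.9%. Stfa1 and BC100530 differed at 6 of 291 coding bases, Gm5483 and 2010005H15Rik at 9 of 291, and Stfa2l1 and Stfa2 at 11 of 309. The following coding sequences show the latter pairs from their start codons, with the bases that differ within each pair in capitals. Stfa2l1 and Stfa2 are shown because they are near copies with unlike values in knockout replicates 9 and 12, and Gm5483 and 2010005H15Rik because they are near copies with like values. The coding exons lie between chr16:36156837-36161869 for Stfa2l1 (plus strand), chr16:36404030-36408333 for Stfa2 (minus strand), chr16:36184260-36188036 for Gm5483 (plus strand) and chr16:36253046-36257369 for 2010005H15Rik (plus strand). The sequences are those of the GENCODE M21 transcripts on GRCm38, for the first 300 coding bases of the first pair and all 291 of the second.
Stfa2l1: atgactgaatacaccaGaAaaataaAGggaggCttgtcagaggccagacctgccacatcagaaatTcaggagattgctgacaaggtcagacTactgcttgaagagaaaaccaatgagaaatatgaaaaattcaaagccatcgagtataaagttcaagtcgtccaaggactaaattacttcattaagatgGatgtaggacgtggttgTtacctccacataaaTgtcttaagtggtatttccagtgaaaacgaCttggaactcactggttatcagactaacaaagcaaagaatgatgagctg
Stfa2: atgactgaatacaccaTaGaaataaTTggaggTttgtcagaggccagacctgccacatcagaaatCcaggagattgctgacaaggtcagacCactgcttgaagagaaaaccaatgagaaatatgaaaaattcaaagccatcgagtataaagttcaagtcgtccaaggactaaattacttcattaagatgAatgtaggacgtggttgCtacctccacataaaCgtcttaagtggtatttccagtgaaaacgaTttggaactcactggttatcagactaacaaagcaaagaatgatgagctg
Gm5483: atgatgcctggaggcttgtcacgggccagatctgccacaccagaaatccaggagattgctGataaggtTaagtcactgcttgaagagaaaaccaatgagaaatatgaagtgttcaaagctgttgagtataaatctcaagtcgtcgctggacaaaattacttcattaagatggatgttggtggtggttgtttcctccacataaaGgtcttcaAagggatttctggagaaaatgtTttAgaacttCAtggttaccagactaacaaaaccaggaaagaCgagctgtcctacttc
2010005H15Rik: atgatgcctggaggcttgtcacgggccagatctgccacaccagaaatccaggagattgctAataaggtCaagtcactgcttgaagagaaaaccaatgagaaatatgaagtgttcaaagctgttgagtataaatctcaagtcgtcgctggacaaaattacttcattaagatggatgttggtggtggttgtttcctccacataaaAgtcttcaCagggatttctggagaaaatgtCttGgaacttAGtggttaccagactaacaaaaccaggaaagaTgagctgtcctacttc

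Stretches without a capital are where a read could come from either copy. The longest identical run in the transcripts was 97 bases between Stfa2l1 and Stfa2, 134 bases between Gm5483 and 2010005H15Rik, 128 bases between Stfa1 and BC100530, and 138 bases between BC117090 and BC100530. Of all 50-base windows of its principal transcript, 35.6% in Gm5483, 33.7% in BC117090, 33.5% in BC100530, 26.9% in Stfa1, 24.6% in Stfa2l1, 22.0% in 2010005H15Rik and 15.9% in Stfa2 also occurred in a transcript of another gene. Csta1 shared 0.805% of its windows, and Stfa3 and Gm5416 shared none. With read length and the handling of reads that match several places not given in the sources used here, the split of counts within these pairs is uncertain. Sums over near copies are therefore given beside single genes.

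Counted reads per library ran from 1208896 to 5853454 in wild type and from 3125366 to 15557862 in knockout, so knockout libraries were deeper (exact permutation test, two-sided, p = 0.0303). The size of 3 reads ran from 1.04 to 13.5 normalized counts. The Trex2 level averaged 1480 ± 446 normalized counts (SD, n = 5) in the wild-type libraries and 1.85 ± 0.909 (SD, n = 6) in the knockout libraries, with no overlap (exact permutation test, two-sided, p = 0.00433, the smallest it gives here), as the labels state. Markers of epidermis were present as the tissue label states, with Krt14, a basal keratin, at mean normalized counts of 41338 in the wild-type and 75480 in the knockout libraries. Knockout replicates 9 and 12 stood apart from the other 4 knockout libraries in the 27 tested neutrophil markers, at -1.33 and -1.74 on a centred log2 score against -0.33 to 0.62 for the rest. They also had the highest scores of 24 terminal differentiation markers, 1.90 and 1.79. The log2 fold changes of the members and the medians of the marker lists, other than the T cell list, are given with and without them.

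The 9 members together took 0.139% to 0.425% of the counted reads of a library. Their summed level averaged 13872 ± 4310 normalized counts over the wild-type libraries (SD, n = 5) and 12338 ± 6111 over the knockout libraries (SD, n = 6), a ratio of 0.889. In wild type the sums were 20870 in replicate 2, 15018 in replicate 3, 10662 in replicate 4, 10526 in replicate 5 and 12284 in replicate 6. In knockout they ran from 7063 in replicate 10 to 23965 in replicate 9, so the highest and the lowest sums of all 11 libraries were both in knockout. Of the 6 knockout sums 4 were under the whole wild-type range. Without wild-type replicate 2 the ratio was 1.02, and without knockout replicates 9 and 12 it was 0.657.

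Behind these totals the members went in different directions over all libraries. On the log2(normalized count + 1) scale 4 members had lower and 5 had higher means in knockout, with a median log2 fold change of 0.07. Among all 13215 genes tested 6479 were lower and the median was 0.01. Stfa2l1, Gm5483 and 2010005H15Rik had log2 fold changes of -1.61 to -1.83, Stfa2 of -0.63, and the other 5 of 0.07 to 0.30. This division into sets of 3 and 5 genes was made after the values were seen and is used below only to describe them. Without knockout replicates 9 and 12 all 9 members had lower knockout means and the median was -0.44.

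**Figure D1:**
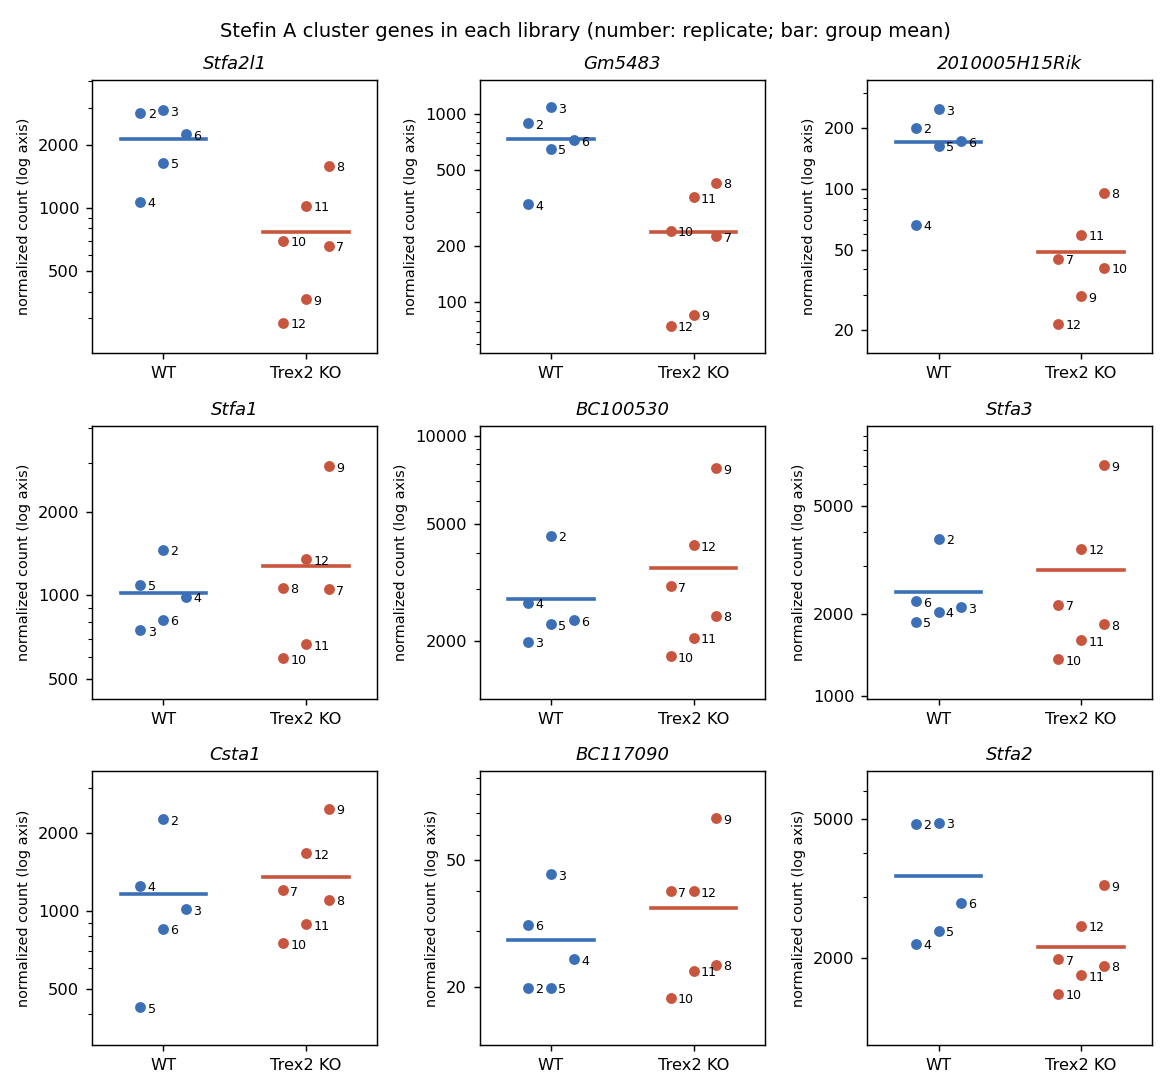
Normalized count (log axis) of each of the 9 members in the 5 wild-type (WT) and 6 Trex2 knockout (KO) libraries; each point is a library with its replicate number and each bar a group mean. In the top row knockout replicates 9 and 12 are the lowest libraries, while in the second row replicate 9 is the highest.

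Stfa2l1, a stefin A copy known from neutrophils, was the most abundant of the 3 genes with the lowest log2 fold changes. Its wild-type levels were 2842, 2906, 1069, 1635 and 2241 normalized counts in replicates 2 to 6. Knockout levels ran from 285 in replicate 12 through a median of 679 to 1582 in replicate 8. The groups overlapped only through wild-type replicate 4 and knockout replicate 8, and 5 of 6 knockout values were under the whole wild-type range. The means were 2138 ± 789 and 769 ± 477 (SD, n = 5 and 6), a log2 fold change of -1.61 (SE 0.40). Without knockout replicates 9 and 12, the lowest of all 11 libraries, it was -1.11.

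Gm5483, now named Cstdc4 in RefSeq, followed the same order of libraries at a lower level. Wild-type replicates 2 to 6 had 889, 1079, 331, 650 and 720 normalized counts. In knockout the lowest was 75.3 in replicate 12, the median 232 and the highest 429 in replicate 8, and 4 of 6 knockout values were under the whole wild-type range. This gave a log2 fold change of -1.81 (SE 0.44), or -1.18 without knockout replicates 9 and 12. Wild-type replicate 4 was again the low library of its group.

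The next gene along, 2010005H15Rik, or Csta2 in RefSeq, had the same pattern with few reads. Its wild-type levels were 201, 248, 66.7, 163 and 173 normalized counts in replicates 2 to 6. Knockout libraries ran from 21.5 in replicate 12 through a median of 42.9 to 95.6 in replicate 8, with 5 of 6 under the whole wild-type range. Here the log2 fold change was -1.83 (SE 0.38), and -1.45 without knockout replicates 9 and 12. It shares the 134-base run printed above with Gm5483, and whether any of its reads arose there was not tested. Summed over both copies, the means were 904 ± 346 and 284 ± 167 normalized counts (SD, n = 5 and 6), a ratio of 0.314.

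The ratio of Stfa2l1 to Gm5483 varied less than the level of Stfa2l1. Stfa2l1 over Gm5483 was 2.95 ± 0.323 (SD, n = 5) among wild-type and 3.41 ± 0.594 (SD, n = 6) among knockout libraries, from 2.52 to 4.29 over all 11 libraries, while within the knockout group the highest level of Stfa2l1 was 5.54 times its lowest. With 2010005H15Rik included, the summed means of Stfa2l1, Gm5483 and 2010005H15Rik were 3043 ± 1124 and 1054 ± 642 normalized counts (SD, n = 5 and 6), a ratio of 0.346. Together these genes made up 21.9% ± 5.70 of the member total in wild type and 10.8% ± 7.48 in knockout. In knockout replicates 9 and 12 their share was 2.01% and 2.81%.

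Stfa2, the near copy of Stfa2l1 on the other strand, had a smaller difference and another order of libraries. Wild-type replicates 2 to 6 had 4831, 4874, 2199, 2392 and 2876 normalized counts. Knockout levels ran from 1586 in replicate 10 through a median of 1946 to 3228 in replicate 9, and 4 of 6 knockout values were under the whole wild-type range. The means were 3434 ± 1318 and 2161 ± 600 (SD, n = 5 and 6), a log2 fold change of -0.63 (SE 0.24). Without knockout replicates 9 and 12 it was -0.84, so the difference was larger without the libraries that held the lowest Stfa2l1 levels.

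The ratio of Stfa2 to Stfa2l1 set those libraries apart. It was 1.28 to 2.06 in the 5 wild-type libraries and 1.20 to 3.01 in knockout replicates 7, 8, 10 and 11, but 8.78 in replicate 9 and 8.66 in replicate 12. As the genes share runs of up to 97 bases, their sum is also given. It averaged 5573 ± 2073 and 2930 ± 509 normalized counts in the respective genotypes (SD, n = 5 and 6), a ratio of 0.526, with 4 of 6 knockout values under the whole wild-type range.

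The remaining 5 members had overlapping groups and higher knockout means over all libraries. BC100530, or Cstdc5, was the most abundant of them, with 4570, 1986, 2695, 2282 and 2352 normalized counts in wild-type replicates 2 to 6. Knockout libraries ran from 1777 in replicate 10 through a median of 2757 to 7746 in replicate 9. Knockout replicate 9 was thus the highest of all 11 libraries for this gene, and wild-type replicate 2 the highest of its group. The log2 fold change was 0.23 (SE 0.34), and -0.21 without knockout replicates 9 and 12.

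Stfa1, which differs from BC100530 at 6 coding bases, had 1459, 749, 986, 1094 and 816 normalized counts in wild type. In knockout it ran from 594 in replicate 10 through a median of 1058 to 2912 in replicate 9. The order of the high libraries was that of BC100530, and Stfa1 over BC100530 was 0.378 ± 0.061 (SD, n = 5) among wild-type and 0.355 ± 0.044 (SD, n = 6) among knockout libraries. The log2 fold change was 0.14 (SE 0.34), and -0.28 without knockout replicates 9 and 12. The summed level of Stfa1, BC100530 and BC117090, which share sequence, averaged 3826 ± 1287 and 4862 ± 3093 normalized counts (SD, n = 5 and 6), a ratio of 1.27.

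Stfa3, at the far end of the cluster, shared no 50-base window of its principal transcript with another gene. Shorter reads and reads with mismatches were not covered by that search. Its wild-type levels were 3784, 2116, 2034, 1866 and 2223 normalized counts in replicates 2 to 6. Knockout levels ran from 1359 in replicate 10 through a median of 1995 to 7039 in replicate 9. The high libraries were again wild-type replicate 2 and knockout replicates 9 and 12. The groups overlapped, with 3 of 6 knockout values under the whole wild-type range and 1 above it. The log2 fold change was 0.07 (SE 0.36) and lay on either side of 0 as single libraries were left out. Without knockout replicates 9 and 12 it was -0.44.

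Csta1, the copy at the opposite end and the one that keeps the name of human CSTA, had 2274, 1015, 1256, 424 and 852 normalized counts in wild-type replicates 2 to 6. Knockout levels ran from 751 in replicate 10 through a median of 1156 to 2489 in replicate 9. Wild-type replicate 5 was the lowest of all libraries, and the groups overlapped, with a log2 fold change of 0.30 (SE 0.38). Without knockout replicates 9 and 12 the log2 fold change of Csta1 was -0.06. BC117090, or Cstdc6, had the lowest level of the set: 20.0, 45.1, 24.5, 20.0 and 31.4 normalized counts in wild type, and 18.5 to 67.5 in knockout with a median of 31.7. It rested on 85 reads over all wild-type and 346 over all knockout libraries, so its log2 fold change of 0.25 (SE 0.33) rests on few reads. For BC117090 that value was -0.09 without knockout replicates 9 and 12.

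Along the chromosome Stfa2l1, Gm5483 and 2010005H15Rik are not an unbroken run. Gm5416, outside the set and known as Csta3 in RefSeq, lies between Gm5483 and 2010005H15Rik and averaged 375 ± 140 and 374 ± 202 normalized counts in the respective genotypes (SD, n = 5 and 6), a difference of -0.08 on the log2 scale (SE 0.31), or -0.38 without knockout replicates 9 and 12. Stfa1, on the same strand beyond 2010005H15Rik, and Csta1, before Stfa2l1, had positive values over all libraries. Gm4758, an unprocessed pseudogene inside the cluster, had a mean of 2.26 normalized counts and was not tested.

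**Figure D2:**
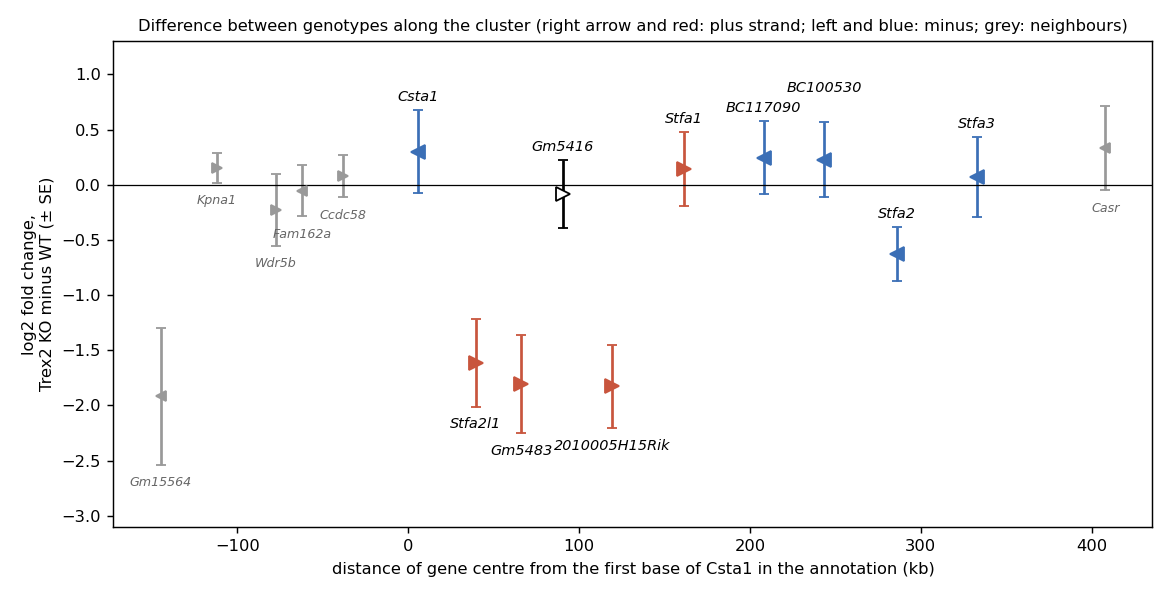
Log2 fold change, knockout minus wild type, with its standard error for the 9 members, Gm5416 (open symbol) and 6 neighbouring genes (grey) against distance from the first annotated base of Csta1 in kb; arrows give the strand. Stfa2l1, Gm5483 and 2010005H15Rik lie between -1.61 and -1.83, while Gm5416 among them is at -0.08.

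By limma with Benjamini-Hochberg adjustment over all genes, 0 of 9 members passed an adjusted p of 0.05, as did 0.0151% of all genes tested. At an unadjusted p under 0.05 the counts were 4 members and 24.4% of all genes. By edgeR on whole reads recovered from the table it was 0 members and 0.0303%. By DESeq2 on those reads Stfa2l1, Gm5483 and 2010005H15Rik passed in the lower direction, 3 of 9, as did 2.15% of all genes. The same 3 genes passed in limma without wild-type replicate 4, beside 2.11% of all genes. Complete separation, with all 6 knockout values under all 5 wild-type values, held for 0 members and 1.29% of all genes. These counts describe the contrast that was known when the set was chosen, and nothing is read from them.

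Levels between genes were compared per kb of annotated exon. In wild type the order was Stfa2 (7292 ± 2798 normalized counts per kb), Stfa3 (5837 ± 1898), Stfa2l1 (5104 ± 1884) and BC100530 (3515 ± 1308; SD, n = 5), and each neighbouring pair of these ranges overlapped. Stfa1, at 1438 ± 395 per kb, lay below all of those, with no overlap with BC100530. Csta1 (418 ± 248), Gm5483 (394 ± 150), 2010005H15Rik (267 ± 104) and BC117090 (72.8 ± 27.3) followed, each overlapping its neighbour in the order. Gm5483 depends on its length: a retained-intron model gives it 1.86 kb of exon, and over its 0.414 kb coding transcript it had 1773 ± 675 per kb, beside 1654 ± 454 for Stfa1 on that basis. In knockout Stfa3 (7061 ± 5230 per kb; SD, n = 6) came first and Stfa2l1 (1836 ± 1139) ranked 4 of 9.

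How the members varied from library to library was described by their deviations from the group means, so that the genotype difference plays no part. Pearson r between Stfa2l1, Gm5483 and 2010005H15Rik was 0.94 to 0.97 over 11 libraries. Among Stfa1, BC100530 and Stfa3 it was 0.93 to 0.97, and with Csta1 and BC117090 included it was 0.49 to 0.97. Between the set of 3 and the set of 5 every r was negative, from -0.63 to -0.24. All points share the libraries, their depth and their size factors, and reads shared between copies can raise r within near copies. Stfa3, which shares no windows, had r = 0.97 with BC100530, and 0.93 without knockout replicates 9 and 12. The part of shared reads in these r was not tested.

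Some of this structure rested on 2 libraries. Without knockout replicates 9 and 12, r within the set of 3 was 0.95 to 0.97 and within Stfa1, BC100530 and Stfa3 0.75 to 0.93 over 9 libraries. The negative values between the sets were gone, at -0.03 to 0.38. Stfa2 had r of -0.09 to 0.14 with the set of 3 over all libraries and of 0.68 to 0.73 without those 2 libraries. Its r with the set of 5 was 0.57 to 0.75 and then 0.20 to 0.66. BC117090, the member with fewest reads, had r of 0.49 to 0.67 with the others of its set over 11 libraries and of -0.15 to 0.13 over 9. Gm5416 varied with the set of 5, at 0.92 with Stfa1 and 0.93 with BC100530, and 0.85 and 0.90 without those libraries.

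**Figure D3:**
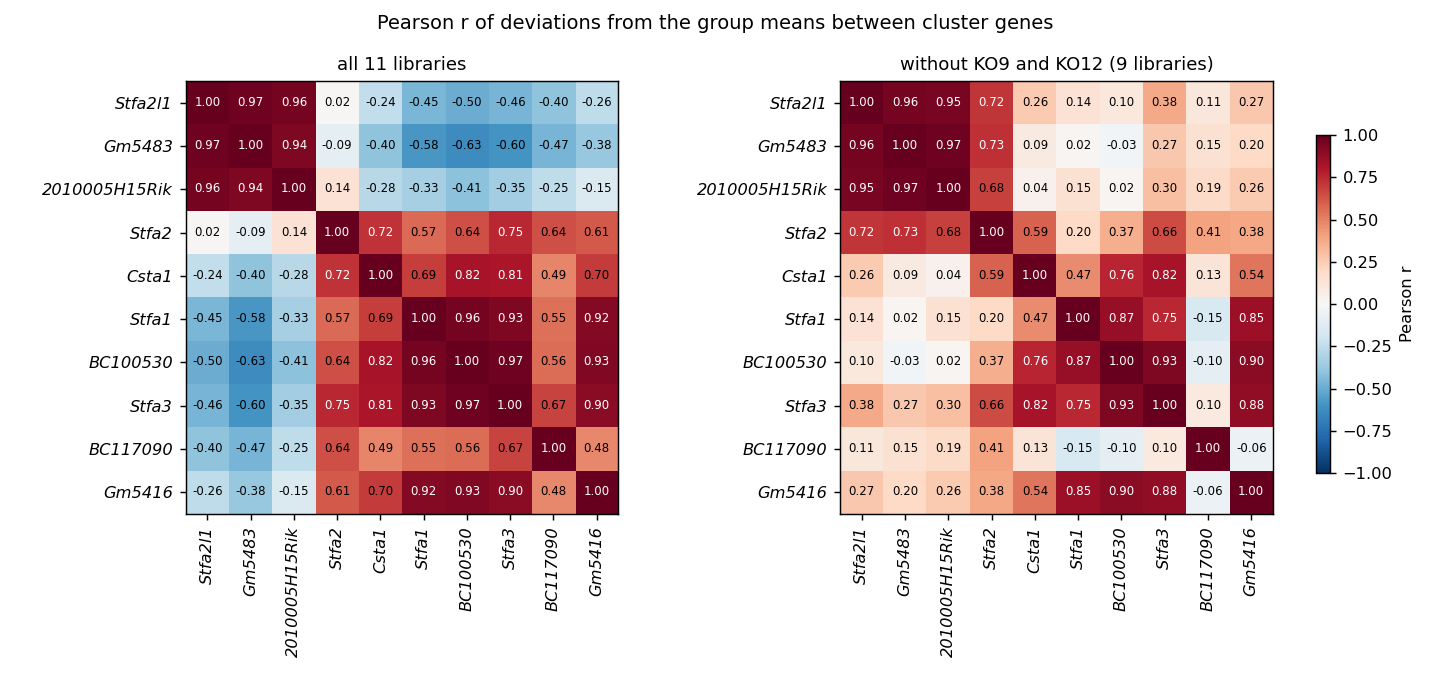
Pearson r of deviations from the group means, on the log2(normalized count + 1) scale, between the 9 members and Gm5416 over all 11 libraries (left) and without knockout replicates 9 and 12 (right). The block of Stfa2l1, Gm5483 and 2010005H15Rik stays at 0.94 or above in both panels, while Stfa2 moves from near 0 to 0.68 to 0.73 with that block.

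Likeness in sequence was set beside likeness across all 11 libraries. Stfa1 and BC100530 (97.9% coding identity) had r = 0.96 and Gm5483 and 2010005H15Rik (96.9%) had r = 0.94. Stfa2l1 and Stfa2 (96.4%) had r = 0.02, and 0.72 without knockout replicates 9 and 12. BC117090, the member with fewest reads, had r = 0.56 with BC100530 (96.2%) and 0.55 with Stfa1 (94.4%). Without those libraries its r was -0.10 and -0.15. Stfa2l1 and Gm5483, at only 82.8% identity, had r = 0.97. Stfa3 and BC100530, at 84.2%, had r = 0.97. Over all pairs these are descriptions, with the same libraries behind each value.

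The bases before the start sites were compared as the members moved together in sets. RefSeq promoters on GRCm38.p6 were found for 8 of the 9 members, and the 250 bases before the RefSeq start were searched on both strands. The windows of Csta1, 2010005H15Rik, Stfa1, BC100530 and Stfa2 run into the gene as GENCODE annotates it. Match positions below are therefore relative to the RefSeq start only. Windows of 4 genes are shown, for Stfa2l1 and Gm5483 from the set of 3, for Stfa2 as the near copy of Stfa2l1 and for Stfa3 from the set of 5: chr16:36156561-36156810 (plus strand), chr16:36408458-36408613 (minus strand), chr16:36183962-36184211 (plus strand) and chr16:36455393-36455642 (minus strand). For Stfa2 only the 156 bases outside its GENCODE exon are printed, which leaves out its matches nearer the start. Capitals mark matches on either strand to GAGGAA, the core bound by PU.1, to TTNNGNAA, a loose C/EBP pattern, to TTCNNNGAA, a STAT site, and to TTTAAA.
Stfa2l1: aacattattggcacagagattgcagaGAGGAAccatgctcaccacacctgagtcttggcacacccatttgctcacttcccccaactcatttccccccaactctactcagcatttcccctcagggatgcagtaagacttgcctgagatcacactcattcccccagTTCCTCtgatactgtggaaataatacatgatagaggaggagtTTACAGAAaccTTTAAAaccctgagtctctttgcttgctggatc
Stfa2: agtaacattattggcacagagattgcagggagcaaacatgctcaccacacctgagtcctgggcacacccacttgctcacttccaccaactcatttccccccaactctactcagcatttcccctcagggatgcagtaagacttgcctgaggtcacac
Gm5483: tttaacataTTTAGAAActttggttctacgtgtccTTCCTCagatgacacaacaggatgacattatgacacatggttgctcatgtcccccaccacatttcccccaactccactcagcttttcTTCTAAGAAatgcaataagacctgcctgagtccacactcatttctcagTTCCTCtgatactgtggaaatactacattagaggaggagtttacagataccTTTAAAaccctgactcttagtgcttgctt
Stfa3: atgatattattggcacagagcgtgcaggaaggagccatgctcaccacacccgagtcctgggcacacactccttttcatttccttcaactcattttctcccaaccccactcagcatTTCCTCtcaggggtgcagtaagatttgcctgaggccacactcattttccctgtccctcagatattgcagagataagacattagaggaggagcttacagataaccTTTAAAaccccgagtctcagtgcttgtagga

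Stfa2l1 and Stfa2 were alike here too, with 92.3% identity over 246 aligned bases, against 78.2% between Stfa2l1 and Gm5483 and 82.9% between Stfa2l1 and Stfa3. The windows of Stfa1 and BC100530 had 96.1% identity over 229 bases. Those of 2010005H15Rik and Csta1 aligned poorly with Stfa2l1, at 48.7% and 49.4%. The window of 2010005H15Rik, a gene with values like Gm5483, had 49.4% identity to that of Gm5483. It is chr16:36221312-36221561, far before the coding exons of 2010005H15Rik, which begin at 36253046. The Gm5483 window ends at 36184211, close to the first coding base at 36184260. The windows may thus not be counterparts, and which start sites were used in this skin was not tested.

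GAGGAA occurred in 7 of 8 member windows and in 23.3% of 32851 RefSeq promoters of the same length. In Stfa2l1, Gm5483 and Stfa2 a copy began 80 to 86 bases before the start, and the other match positions differed between genes. TTNNGNAA occurred in 5 of 8 windows (36.8% of all promoters), TTCNNNGAA in Gm5483 alone (7.02%), and TGANTCA, an AP-1 site, and the TATA box TATAAA in 0 of 8 (6.75% and 12.4%). TTTAAA, a motif added after the sequences were seen, occurred in 7 of 8 windows and in 12.1% of all promoters. It began 25 to 35 bases before the RefSeq start in Stfa2l1, Gm5483, Stfa1, Stfa2 and Stfa3, 5 of 8, and in 0.983% of all promoters. In Stfa1 and Stfa2 that position lies inside the gene as GENCODE annotates it. That range, too, was chosen after the members were seen. As motif and range were both fitted to the members, these shares are a description and not a test. The copies share descent, so the members are not separate cases, and a match is a string and not a shown binding site.

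Genes outside the set were ranked by likeness to it over the 9916 named genes with a mean of at least 50 normalized counts. To the mean deviation of the 9 members the nearest were Tradd (r = 0.95), an adaptor of the TNF receptor, Sec61a2 (0.93), a translocon subunit, Rab8a (0.93), a small GTPase of membrane traffic, Nol7 (0.92), a nucleolar protein, and Lin37 (0.92), a subunit of the DREAM complex. These r were 0.89 to 0.94 without knockout replicates 9 and 12. Single profiles were also taken, after the values were seen.

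Nearest to Stfa2l1 were Cd300lf (r = 0.99), an inhibitory receptor of myeloid cells, F10 (0.98), coagulation factor X, Cd52 (0.98), a leukocyte surface glycoprotein, Cd47 (0.98), the ligand of SIRP alpha, and Clec4d (0.98), a C-type lectin of myeloid cells. Its r was 0.82 with S100a8, a calcium-binding protein abundant in neutrophils, 0.72 with Csf3r, the G-CSF receptor, and -0.81 with Ivl, involucrin of the cornified envelope. Leaving out knockout replicates 9 and 12, the nearest genes had r of 0.95 to 0.98, S100a8 0.91, Csf3r 0.50 and Ivl -0.69. With the keratin genes Krt5 and Krt10, r of Stfa2l1 was -0.76 and -0.57, and -0.55 and -0.24 without those libraries. Nearest to BC100530 were Higd1a (0.97) and Fam162a (0.96), both mitochondrial proteins, Krcc1 (0.95), Pigf (0.95), of GPI anchor synthesis, and Hadh (0.94), of fatty acid oxidation. Its r was -0.11 with S100a8, -0.66 with Csf3r and 0.80 with Krt5, a basal keratin. Without knockout replicates 9 and 12 r was 0.14 with S100a8, -0.36 with Csf3r and 0.60 with Krt5, and 0.81 to 0.93 with the nearest genes. With Ivl and Krt10, r of BC100530 was 0.53 and 0.61, and 0.32 and 0.21 without those libraries. Nearest to Stfa2 were Ankrd9 (0.94), Tamm41 (0.91), Pef1 (0.91), Akip1 (0.91) and F11r (0.91), a tight junction adhesion molecule, at 0.87 to 0.95 without those libraries. All nearest genes are the highest of many over the same libraries.

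Markers of other cells moved with the same libraries as the members. Of 29 neutrophil markers 27 were tested, and all 27 had lower knockout means, with a median log2 fold change of -0.95. By limma 0 passed the threshold and 20 had an unadjusted p under 0.05, by edgeR 0 passed, and by DESeq2 3 passed as lower. Over all genes tested 24.4% had an unadjusted limma p under 0.05, and DESeq2 called 2.15% lower and 292 of 13215 higher. These shares stand beside the counts of this list and of those below. Their summed level was 68442 to 161715 normalized counts over wild-type libraries and 23395 to 121177 over knockout libraries. Mpo and Elane, granule genes of immature neutrophils, were the untested ones, with wild-type means of 3.51 and 1.39 normalized counts. The smallest p-values were those of Mmp9, a gelatinase of neutrophil granules (-1.19, SE 0.34, adjusted p = 0.108 by limma), and S100a8 (-1.12, SE 0.34, adjusted p = 0.110 by limma). Without knockout replicates 9 and 12 the list's median was -0.47, with 26 of 27 lower. In bulk skin, fewer cells of a type and less RNA per cell cannot be told apart, and the part of neutrophil number in the values of Stfa2l1, Gm5483 and 2010005H15Rik was not tested.

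Set against these markers, Stfa2l1 made 1.63% ± 0.319 (SD, n = 5) of the neutrophil marker sum among wild-type and 1.18% ± 0.230 (SD, n = 6) among knockout libraries. Its ratio to Csf3r was 2.04 ± 0.748 and 0.995 ± 0.316, and wild-type replicate 4, at 0.931, lay within the knockout range of 0.591 to 1.39. The score of the 3 genes was lowest in knockout replicates 12 (-1.97) and 9 (-1.65), as was the neutrophil score. Within wild type both were lowest in replicate 4, at -0.10 and -0.19.

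Keratinocyte lists went the other way. All 24 terminal differentiation markers had higher knockout means, with a median log2 fold change of 1.44. That median was 0.84 without knockout replicates 9 and 12, and 2 of the 24 were then lower. By limma 0 passed, with 14 at an unadjusted p under 0.05, by edgeR 0 and by DESeq2 3. Their summed level was 20297 to 48835 normalized counts over wild-type libraries and 24755 to 99891 over knockout libraries. Named by smallest p were Ivl, at 1.57 (SE 0.31), and Abca12, a lipid transporter of the barrier, at 1.70 (SE 0.39), each with an adjusted p of 0.108 by limma. All 8 basal markers were also higher (median 0.94), with Cdh3, P-cadherin, at 1.16 and Trp63, a transcription factor of basal cells, at 0.99. Of 14 tested markers of stressed keratinocytes 13 were higher (median 0.45), with Krt6a at 0.94 and Krt17 at 0.99. Of the basal and stressed lists 0 passed by limma or edgeR, and DESeq2 called 4 and 0 higher. At an unadjusted limma p under 0.05 there were 7 and 3, or 87.5% and 21.4%, beside 24.4% of all genes. The basal median was 0.69 and the stressed median 0.16 when knockout replicates 9 and 12 were left out, with 0 and 3 markers lower. The score of Csta1, Stfa1, BC117090, BC100530 and Stfa3 was highest in knockout replicate 9 (1.35) and replicate 12 (0.49), which also led the differentiation score, but wild-type replicate 2 came close (0.45) with a differentiation score of -0.44. The part of these cell types in the values of the members was not tested.

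**Figure D4:**
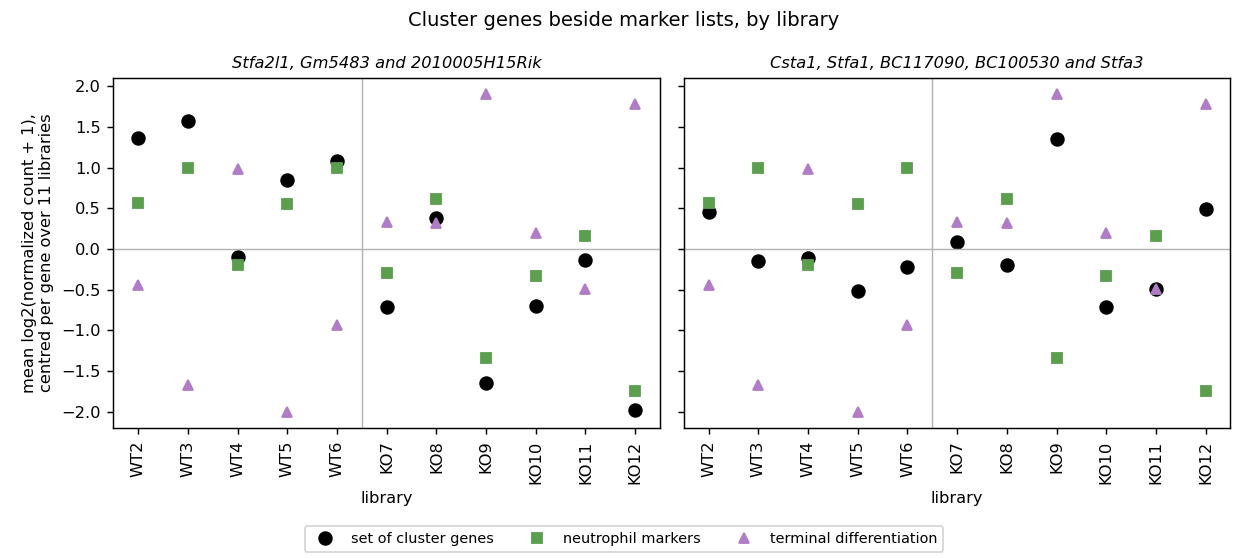
Mean log2(normalized count + 1), centred per gene over the 11 libraries, for 3 members (left) and 5 members (right; black) in each library, beside the 27 tested neutrophil markers (green) and 24 terminal differentiation markers (purple). In knockout replicates 9 and 12 the left set is at -1.65 and -1.97 and the right set at 1.35 and 0.49.

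Lists for other cells had smaller medians than the neutrophil list. Of 16 monocyte and macrophage markers 13 were lower in knockout (median -0.60), among them Plac8, a myeloid gene, at -1.08 (SE 0.30) and the monocyte surface gene Ly6c2 at -1.52 (SE 0.42), each with an adjusted p of 0.108 by limma. All 5 tested mast cell and eosinophil markers were lower (median -0.22; Kit -0.37, Cpa3 -0.22), as were all 7 fibroblast (median -0.29; Col1a2 -0.31, Dcn -0.40) and all 6 muscle markers (median -0.41; Myh4 -0.75, Tnnc2 -0.64). Of the T cell list only Lck (-0.68) and Cd4 (0.63) were tested. By limma or edgeR 0 genes of these 5 lists passed. At an unadjusted limma p under 0.05 there were 8 monocyte and macrophage, 1 mast cell, 0 fibroblast, 2 muscle and 0 T cell genes, and DESeq2 called 2 of the first list and 0 of the others. Leaving out knockout replicates 9 and 12 gave medians of -0.35 for monocytes and macrophages (13 of 16 lower), -0.16 for mast cells and eosinophils (5 of 5), -0.26 for fibroblasts (7 of 7) and -0.18 for muscle (4 of 6).

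The targets of stefins, the cysteine cathepsins, were compared as a list of 11 with the asparaginyl protease legumain. All 11 were tested, 10 had lower knockout means and the median log2 fold change was -0.27. By limma, DESeq2 or edgeR 0 passed the threshold. At an unadjusted limma p under 0.05 there were 2, or 18.2%, beside 24.4% of all genes. The list's median was -0.16 without knockout replicates 9 and 12, with 8 of 11 lower. With wild-type means given first (± SD, n = 5 and 6), those 2 were Ctsz, cathepsin Z of myeloid cells, from 1928 ± 257 to 1253 ± 390 normalized counts (-0.68, SE 0.21, adjusted p = 0.114 by limma), and Ctsf, from 97.9 ± 13.5 to 73.4 ± 10.9 (-0.41, SE 0.15, adjusted p = 0.140 by limma). Ctsb, the most abundant, had 13732 ± 1133 and 11303 ± 1820 normalized counts, and Ctsl, a cathepsin of epidermis and follicle, 7487 ± 1304 and 7284 ± 903.

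Relative to the list of cysteine cathepsins and legumain the stefins varied widely, in counts not scaled for transcript length. The member sum over the summed cathepsins and legumain was 0.411 ± 0.145 (SD, n = 5) among wild-type and 0.454 ± 0.300 (SD, n = 6) among knockout libraries. It ran from 0.248 in knockout replicate 10 to 1.02 in replicate 9. That library had the highest member sum and the lowest sum of cathepsins and legumain, 23451 normalized counts. The aspartic and serine cathepsins Ctsd (-0.01, SE 0.14) and Ctsa (-0.06, SE 0.11), which stefins do not inhibit, had small log2 fold changes.

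Of 18 cystatins outside the cluster 6 were tested, 4 had lower knockout means, and 0 passed the limma threshold or edgeR's, with 3 at an unadjusted limma p under 0.05. Their median was -0.48, and -0.41 without knockout replicates 9 and 12, with 5 of 6 lower. Cst3, the secreted cystatin C, averaged 2666 ± 379 (SD, n = 5) and 1765 ± 379 normalized counts (SD, n = 6), and all 6 knockout values were under the whole wild-type range. By limma the difference was -0.61 on the log2 scale (SE 0.16, adjusted p = 0.108), and DESeq2 on recovered reads gave an adjusted p of 0.026. Cst7, cystatin F of leukocytes, had 16.1 ± 8.25 and 5.19 ± 1.28 normalized counts (-1.32, SE 0.40, adjusted p = 0.108 by limma). Without wild-type replicate 4 limma called both lower, with adjusted p of 0.045 for Cst3 and 0.036 for Cst7. Cst7 reached the mean of 10 needed for testing only through its wild-type values, and its counts rest on few reads. In wild-type replicate 3 the size of 3 reads was 13.5 normalized counts. Nothing is read from the call of Cst7. Cst6, cystatin M/E of the cornified layer, had the opposite direction at 0.96 (SE 0.40, adjusted p = 0.168 by limma), and Cstb, the stefin B gene on another chromosome, -0.34 (SE 0.19).

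**Figure D5:**
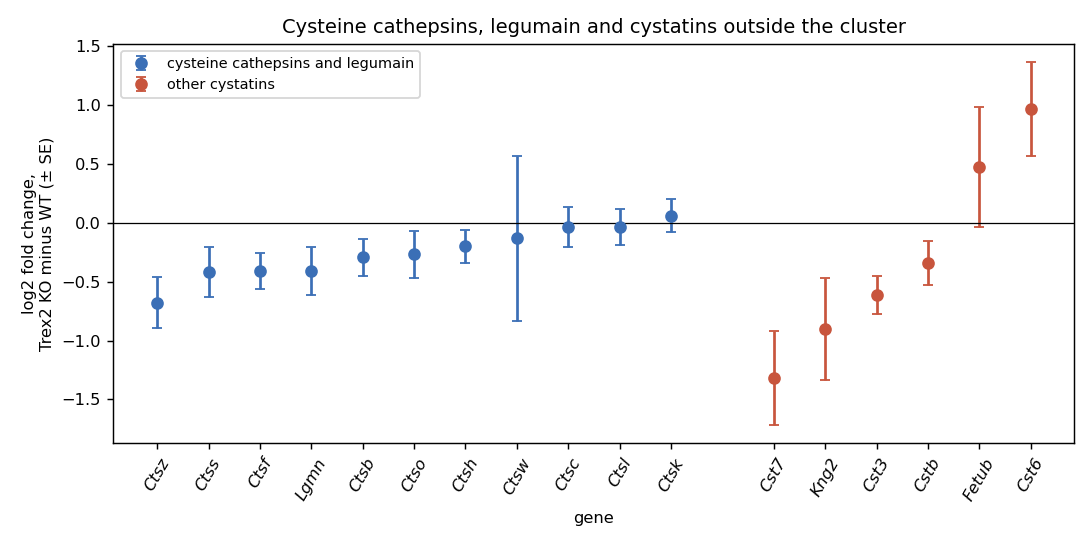
Log2 fold change, knockout minus wild type, with its standard error for the 11 cysteine cathepsins and legumain (blue) and the 6 tested cystatins outside the cluster (red), ordered by value within each list. Of the first list 10 lie below 0, down to Ctsz at -0.68, and the second runs from Cst7 at -1.32 to Cst6 at 0.96.

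Among 17 other protease inhibitors of leukocytes and epidermis 14 were tested, 8 were lower and 6 higher, and 0 passed by limma or edgeR, with 9 at an unadjusted limma p under 0.05. The smallest p-values were those of Serpinb3b, a clade B serpin, at 0.94 (SE 0.26) and Serpinb1a, an inhibitor of neutrophil serine proteases, at -0.50 (SE 0.15), each with an adjusted p of 0.108 by limma. DESeq2 called 1 higher and 3 lower in this list. Its median was -0.16, and -0.13 without knockout replicates 9 and 12, with 8 of 14 lower.

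Position beside the cluster was not a part of how the set was chosen. Of 20 annotated neighbours, 10 on each side, 11 were tested and 0 passed by limma, edgeR or DESeq2. At an unadjusted limma p under 0.05 there were 3, or 27.3%, near the 24.4% of all genes. By distance, Ccdc58 (27.8 kb; log2 fold change 0.08, SE 0.19), Casr (38.3 kb; 0.33, SE 0.38), Fam162a (48.4 kb; -0.05, SE 0.23), Wdr5b (76.0 kb; -0.23, SE 0.33) and Kpna1 (82.8 kb; 0.16, SE 0.14) came first. Gm15564, an antisense RNA 137 kb away, had mean normalized counts of 925 in the wild-type and 268 in the knockout libraries (-1.92, SE 0.62, adjusted p = 0.116 by limma, and 0.038 without wild-type replicate 4). It overlaps Kpna1 and Parp9 on the opposite strand, and as no strand setting is given, their reads cannot be told apart. The median of the 11 neighbours was -0.23, and -0.22 without knockout replicates 9 and 12, with 8 lower.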

How the data were processed

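Messenger RNA of 5 wild-type and 6 Trex2 knockout skins, all treated with imiquimod, was sequenced. The deposited table holds a normalized signal, the authors' count divided by 1 size factor per library. TopHat2 2.0.8, featureCounts 1.4.6, DESeq2 1.8.1 and GRCm38 were used per the submitters' processing notes. Their order was left unstated, with annotation, read length and strand setting not given in the sources used here. All values were whole multiples of 1 read (100% within 0.01), so reads were recovered. Every pair of replicates differed by more than sampling noise (chi-square over degrees of freedom at least 4.48). The samples are biological replicates per the labels, and p-values measure the spread between them.

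limma 3.58.1 in R 4.3.3 was fitted to log2(normalized count + 1) where a gene's mean reached 10, with Benjamini-Hochberg adjusted p under 0.05. edgeR 4.0.16 and DESeq2 1.42.0 on recovered reads, other pseudocounts, filters and scalings, thinned reads and left-out libraries were alternatives. The fits were tested on simulated data. Sequences were aligned with Biopython 1.88 in Python 3.11.15, and RefSeq and GENCODE M21 supplied them. Promoters were matched by symbol, RefSeq synonym or, for BC100530, position.

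Members and lists were chosen with earlier results of these data known. Named were every member, Trex2, the 2 genes of smallest p in each list without calls, up to 6 tested neighbours, and the 5 genes most like the mean member profile. Others were chosen after their values were seen.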

Additional observations from a re-analysis of the deposited data

Results flagged for a closer look

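In 4 of the 20 groups checked (9 members and the member sum in each genotype), 1 library stood far from its group by Dixon's criterion at the 95% level. Chance marks about 1 in 20 groups only where values are normally distributed. The criterion was applied to normalized counts and not to the log2 values used for the fits, so that rate is not given for these groups. Whether the same groups are marked on the log2 scale was not tested. The genes vary together, so the marked groups are not separate cases. Stfa1 had 2912 normalized counts in knockout replicate 9, with a gap to the next library of 0.675 of the group's range. Stfa3 had 7039 normalized counts in the same library (0.629 of the range). In wild type, replicate 2 stood apart for BC100530, at 4570 normalized counts (0.725 of the range), and for Stfa3, at 3784 (0.814 of the range). None of the marked groups belonged to Stfa2l1, Gm5483 or 2010005H15Rik.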

How the results depend on the processing

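No paired analysis was possible because wild-type replicates are numbered 2 to 6 and knockout replicates 7 to 12, and the groups share no number. The log2 fold changes of Stfa2l1, Gm5483, 2010005H15Rik and Stfa2 kept their sign in all 21 alternatives, from -1.87 to -1.11, -2.60 to -1.18, -2.56 to -1.45 and -0.84 to -0.48. Those of Csta1, Stfa1 and BC100530 changed sign in 2 of 21, of BC117090 in 1 of 19 and of Stfa3 in 5 of 21. Leaving out 1 library at a time, the median of the 9 members ran from -0.24 to 0.24, the ratio of sums from 0.722 to 1.02 and Trex2 from -9.17 to -8.88. The count of genes past the threshold was 2 by limma, 4 by edgeR and 576 by DESeq2, and 2 to 740 when single libraries were left out, the 740 without wild-type replicate 4. That library also set the counts of other cystatins (0 to 2) and neighbours (0 to 1), DESeq2 gave 1 cystatin, and cathepsins stayed at 0. With reads thinned to the shallowest library Gm5483 was at -2.60 and 2010005H15Rik at -2.56. The cause was not tested. Co-variation without knockout replicates 9 and 12 and levels per coding transcript were alternatives chosen after seeing the data. Depth limits BC117090 and 2010005H15Rik, and the split of reads between near copies limits all members except Stfa3 and, with 0.805% of windows shared, Csta1.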
